A study of Drosophila melanogaster with 3 samples.

Results

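Binding of the CG7368 protein was examined at the microRNA genes of Drosophila melanogaster. The animals were whole prepupae of mixed sex and unknown age from the transgenic strain CG7368-GFP, in which the protein carries GFP at its C terminus. Chromatin was sheared by sonication to 200 to 800 bp and precipitated with an antibody against GFP, in 3 biological replicates of this single group. A control is named by its identifier alone and was not analysed here, and whether it entered the authors' signals is not known. Whole animals were used, so a region does not show in which tissue it was bound.

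The microRNA genes were taken by symbol from the Ensembl annotation of dm6, as mir- followed by a digit, together with let-7 and bantam (ban), which that annotation lists as mir-let7 and mir-ban. This gave 259 genes of the 17873 annotated genes left after transposable elements and separate records of mature microRNAs were set aside. Their hairpins have a median length of 92 bp. Genes within 5 kb of each other were counted as 1 unit, which gave 202 units, 177 of 1 gene and 25 of 2 to 8 genes. A gene was counted as having a peak where a summit lay within 2 kb of its hairpin.

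MicroRNAs are short RNAs that silence messenger RNAs by base pairing, mainly through the seed, bases 2 to 8 of the mature strand. A longer primary transcript is cut in the nucleus by Drosha and Pasha into a hairpin, which is exported, cut again by Dicer-1 and loaded onto Argonaute-1. Many microRNAs lie in noncoding primary transcripts of their own, others in introns of protein-coding genes. In flies the let-7 complex rises at metamorphosis under ecdysone and times the change to adult tissues, and bantam drives growth and blocks cell death.

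The mature sequences of units that carry the results follow, because they group the genes by seed. They were read from the RefSeq annotation and genome of the same assembly, 5′ to 3′, with the seed in capitals.
mir-279, 3′ arm: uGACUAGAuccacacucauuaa
mir-996, 3′ arm: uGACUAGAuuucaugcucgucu
ban, 3′ arm: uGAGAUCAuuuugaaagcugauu
mir-275, 3′ arm: uCAGGUACcugaaguagcgcgcg
mir-305, 5′ arm: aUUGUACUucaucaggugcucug
mir-92a, 3′ arm: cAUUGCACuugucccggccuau
mir-92b, 3′ arm: aAUUGCACuagucccggccugc
mir-276a, 3′ arm: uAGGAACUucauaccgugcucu
mir-282, 5′ arm: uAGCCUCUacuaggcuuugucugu
let-7, 5′ arm: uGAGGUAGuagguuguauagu
mir-100, 5′ arm: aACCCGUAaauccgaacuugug
mir-125, 5′ arm: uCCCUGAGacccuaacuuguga

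Few microRNA genes had a peak of the authors' optimal list, which holds the regions kept by the irreproducible discovery rate procedure (IDR). An optimal summit lay within 2 kb of 25 of the 259 genes (9.65%, 95% Wilson interval 6.62 to 13.9), in 22 of 202 units. A further 85 genes had a summit only in the pooled list of 30000 regions, which by its deposited description holds background regions as well as peaks, as do the replicate lists, and 64 had one only in replicate lists. None of the 5 lists had a summit within 2 kb of 83 genes, and 2 genes, mir-10404-1 and mir-10404-2, lie on an rDNA contig outside the chromosome arms that the lists cover.

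The same window gave higher shares at other genes. An optimal summit lay within 2 kb of 27.9% of all other genes, 29.4% of protein-coding genes, 18.6% of tRNA genes, 31.6% of snoRNA genes and 25% of other noncoding RNA genes. Of all positions on the 6 arms, 12.4% lay within 2 kb of an optimal summit. The interval around the microRNA share holds this last value and none of the others. In the pooled list, 110 microRNA genes (42.5%) had a summit, against 59.1% of other genes and 45.9% of positions. The pooled share was 59% for protein-coding, 65.7% for tRNA, 59.9% for snoRNA and 66.9% for other noncoding RNA genes. Genes that are neighbours share summits, so these shares are descriptions.

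The comparison with protein-coding genes was repeated in the replicates. In each replicate the 5246 regions of highest signal were taken, as many as the optimal list holds. The window was placed around the annotated 5′ end so that gene length did not enter. For microRNA genes this is the end of the hairpin and not a transcript start, so unlike places are compared. Starts of transcripts that hold hairpins are treated separately below. MicroRNA genes had a summit in 10.4%, 13.9% and 10.8% of cases in replicates 1, 2 and 3, against 21.5%, 22.1% and 23.2% of protein-coding genes. All 3 microRNA values lay below all 3 protein-coding values. The means were 11.7% ± 1.9 and 22.3% ± 0.866 (SD, n = 3 each), and the difference averaged -10.6 percentage points ± 2.16 (SD, n = 3). It was negative in 3 of 3 replicates, with p = 0.25 in an exact two-sided sign-flip permutation test, the smallest p that 3 replicates allow. In replicates 1, 2 and 3 the shares were 19.9%, 17.3% and 21.8% of tRNA genes, 34.2%, 32.7% and 32% of snoRNA genes, and 21.2%, 20.7% and 21.9% of other noncoding RNA genes. All of these lay above every microRNA value. Positions of the arms averaged 12.3% ± 0.0715 (SD, n = 3), inside the range of the microRNA values. Narrower windows around the 5′ end were counted in the optimal list. Within 1 kb the microRNA, snoRNA and tRNA shares were 6.56%, 14.9% and 9.62%. Within 500 bp they were 3.09%, 4.09% and 5.13%, beside 8.36% of other noncoding RNA and 12.5% of protein-coding genes. The gap to snoRNA and tRNA genes was thus small at 500 bp, where positions gave 3.72%.

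**Figure D1:**
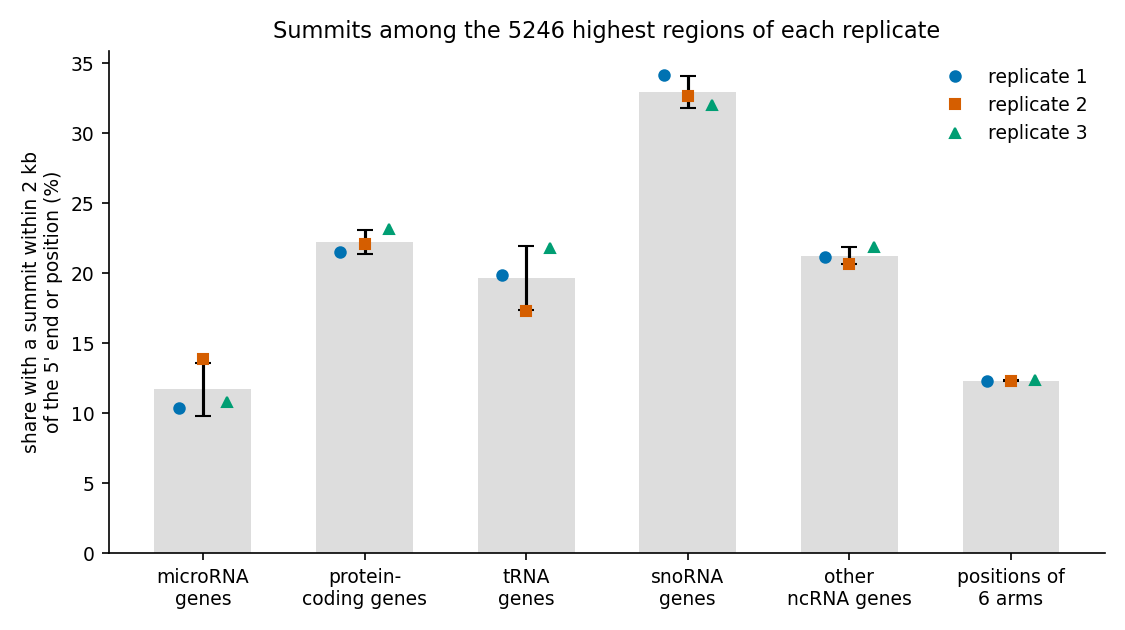
Share of genes, or of positions on the 6 chromosome arms, with a summit of the 5246 highest regions within 2 kb of the 5′ end or position (y axis, percent). Bars are means of 3 replicates, error bars SD and symbols single replicates. MicroRNA genes lie at 10.4% to 13.9%, beside 12.3% to 12.4% of positions and below the 21.5% to 23.2% of protein-coding genes.

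The strongest peak belonged to the unit of mir-279 and mir-996, which repress genes of neuronal and cell fate in sensory lineages and share a seed. Their hairpins lie at 3R 29215585 to 29215684 and 29217184 to 29217280, in exons of the noncoding gene lncRNA:CR31044 on the plus strand. The peak at 3R 29214248 to 29214613 had rank 16 of the optimal list, with a signal of 1430, and its summit lay 123 bp from the start of lncRNA:CR31044 and 1146 bp upstream of mir-279. Ranks at this place were 15, 16 and 20 in replicates 1, 2 and 3, so it was among the highest regions in every replicate. A second, weaker peak 247 bp upstream of mir-279 had a signal of 112 and was the only optimal peak within 2 kb of mir-996.

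Bantam came next. Its hairpin lies at 3L 642208 to 642288 in an exon of lncRNA:CR43334, and its peak, at 3L 640673 to 640857, had signal 436 and rank 475. Ranks were 558, 443 and 520 in replicates 1, 2 and 3, close to each other. The summit lay 1454 bp upstream of the hairpin and 1040 bp from the nearest annotated start, that of a transcript of lncRNA:CR43334 that holds it. Another optimal peak, of rank 407, had its summit 2016 bp downstream of the hairpin, just outside the window.

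The unit of mir-275 and mir-305 had a peak at 2L 7425272 to 7425461, 440 bp upstream of mir-275, with a signal of 361 and rank 722. Its ranks were 1017, 1060 and 482 in replicates 1, 2 and 3. The summit lay in an exon of lncRNA:CR43857, which holds mir-275, and not at its start. At that start lay a separate optimal peak of signal 207, 258 bp from it and 2233 bp upstream of the hairpin, with ranks 2806, 1469 and 1541 in replicates 1, 2 and 3.

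The bases around these 3 summits are shown to give their composition, on the plus strand of dm6 with the summit base in capitals. Within 25 bp of the summit, A and T made up 60.8% of bases at mir-279, 66.7% at ban and 72.5% at mir-275.
mir-279, chr3R:29214424-29214453: ggtttaccgttttcaAgaaaccccgaattt
ban, chr3L:640739-640768: ctgtggttaaacgacAgtcaattaaaaatt
mir-275, chr2L:7425340-7425369: aaacctttgacaatcAaaccaaattaattc

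Further microRNAs with a noncoding primary transcript had peaks near its start. For mir-8, a regulator of growth and of Wingless and insulin signalling, the peak at 2R 16830364 to 16830779 had a signal of 253 and lay 117 bp from a start of lncRNA:CR43650. Its ranks were 2128, 1542 and 1200 in replicates 1, 2 and 3. For mir-276a, which acts in the brain in memory and daily rhythm, the peak spanned 3L 10363769 to 10364184 with signal 188, its summit 42 bp from a start of lncRNA:CR46006. Its ranks were 1764, 2996 and 2054 in replicates 1, 2 and 3. The mir-282 peak spanned 3L 3250003 to 3250418 with signal 215, its summit 383 bp from a start of lncRNA:CR43626, and ranks of 1476, 1839 and 1957. Higher optimal peaks, of ranks 934 and 424, lay 2010 and 2209 bp upstream of mir-282, just outside the window. The mir-375 peak, of signal 151, lay 531 bp from the start of lncRNA:CR45345.

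**Figure D2:**
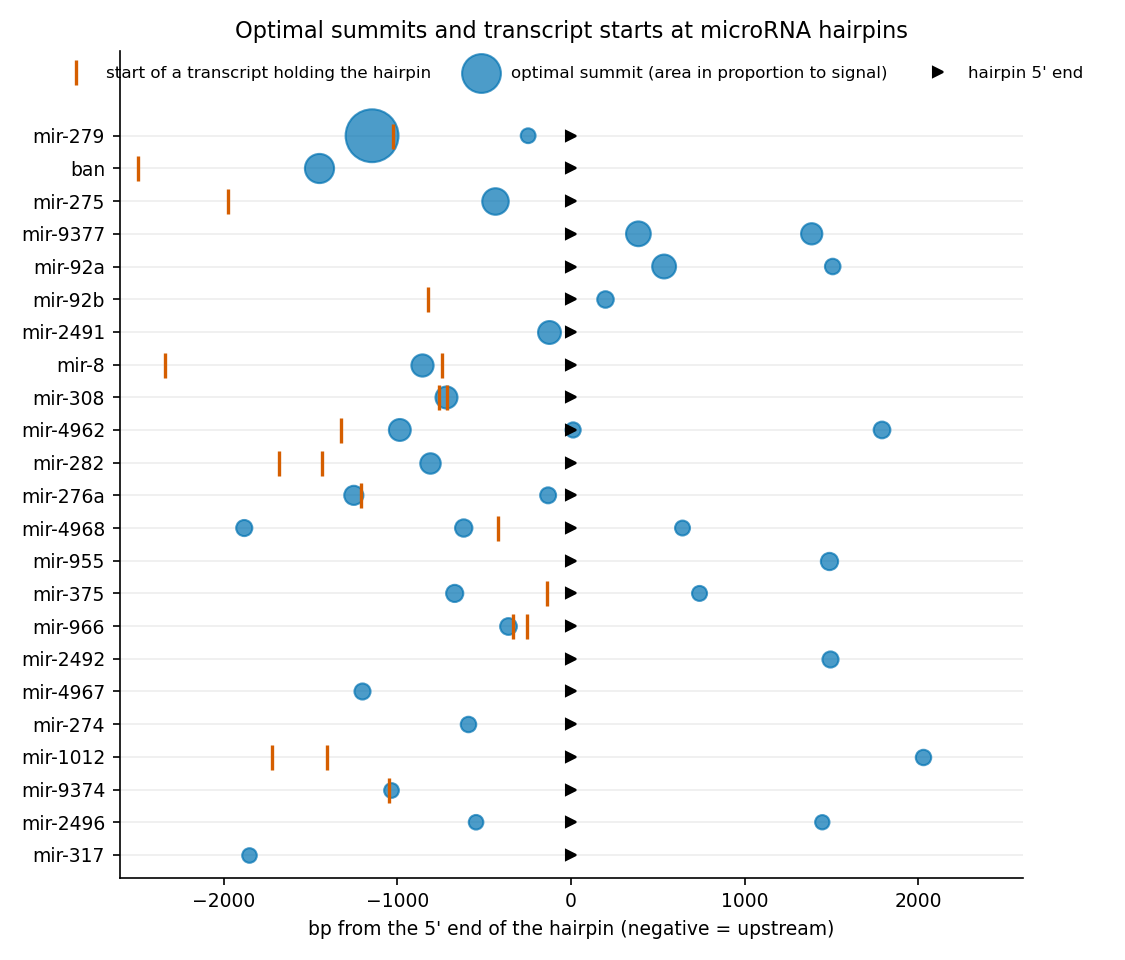
Optimal summits (circles, area in proportion to signal) and starts of same-strand transcripts that hold the hairpin (vertical marks), in bp from the 5′ end of each hairpin, upstream to the left. Rows run from the unit with the highest signal to the lowest, and each summit is drawn at its nearest hairpin. The largest circle, of signal 1430, lies beside the transcript start 1023 bp upstream of mir-279.

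Some peaks at microRNAs in protein-coding genes lay at a start of the host gene. The mir-308 hairpin lies in an intron of RpS23, a gene for a protein of the small ribosomal subunit, and its peak at 2R 14216377 to 14216792 had a signal of 248 with the summit 7 bp from an RpS23 start. Its ranks were 1380, 1755 and 1373 in replicates 1, 2 and 3. In the same way summits lay 27 bp from a start of Pfas, a purine synthesis gene, at mir-966 (signal 144), and 16 bp from a start of Hr39, an ecdysone-induced nuclear receptor gene, at mir-9374 (signal 111). At mir-4962 the summit was 337 bp from a start of the kinase gene Tlk (signal 246), and at mir-4968 it was 199 bp from a start of Mob2 (signal 154). At mir-308, mir-966 and mir-9374 this was the only optimal peak within 2 kb. At mir-4962 and mir-4968 weaker optimal peaks of signal 118 and 114 lay nearer to the hairpin, 1335 bp and 1061 bp from the nearest start.

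The gene jigr1 holds mir-92a and mir-92b, which maintain neuroblasts. A peak at 3R 25646834 to 25647249 had a signal of 292, with ranks 1038, 1220 and 1087 in replicates 1, 2 and 3. Its summit lay 442 bp downstream of mir-92a and 204 bp from a start of jigr1, that of a transcript holding neither hairpin. A weaker peak of signal 140 lay 95 bp downstream of mir-92b.

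Introns away from any start held other peaks. The mir-9377 peak lay in Tis11, a gene for an RNA-binding protein that destabilises messenger RNAs, with a signal of 314, 337 bp downstream of the hairpin and 5071 bp from the nearest start. Its ranks were 788, 807 and 1596 in replicates 1, 2 and 3. A second peak of signal 232 lay 1335 bp downstream. The mir-2491 peak lay in fog, which encodes a secreted signal of epithelial folding, with a signal of 269, 126 bp upstream of the hairpin and ranks 1537, 1617 and 1035. The peaks at mir-2492 in Drak, mir-4967 in Pka-R2, mir-274 in CG32085 on the opposite strand and mir-1012 in Lerp had signals of 133, 132, 123 and 122. The last 3 were not among the 5246 highest regions of every replicate.

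The remaining units lie outside other genes. The mir-955 peak, of signal 153, lay 1388 bp downstream of the hairpin and 429 bp from the start of CG14968. The strongest peaks at mir-2496 and mir-317 had ranks 4904 and 4936, near the end of the optimal list. Of the optimal summits, 1 lay inside a hairpin, at mir-4962, with a signal of 118 and ranks 4524, 4650 and 6347 in replicates 1, 2 and 3.

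In all, 33 optimal peaks lay within 2 kb of a hairpin, and 19 of them (57.6%) were among the 5246 highest regions of all 3 replicates, against 66.1% of all optimal peaks. Of the strongest peak of each of the 22 units, 16 were. The exceptions were mir-4967, mir-274, mir-1012, mir-9374, mir-2496 and mir-317, all in the lower part of the optimal list. For mir-274 the ranks were 9134, 4243 and 4235 in replicates 1, 2 and 3, and for mir-1012 they were 3669, 2894 and 9672. The median signal of the 33 peaks was 143, against 169 for all optimal peaks.

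**Figure D3:**
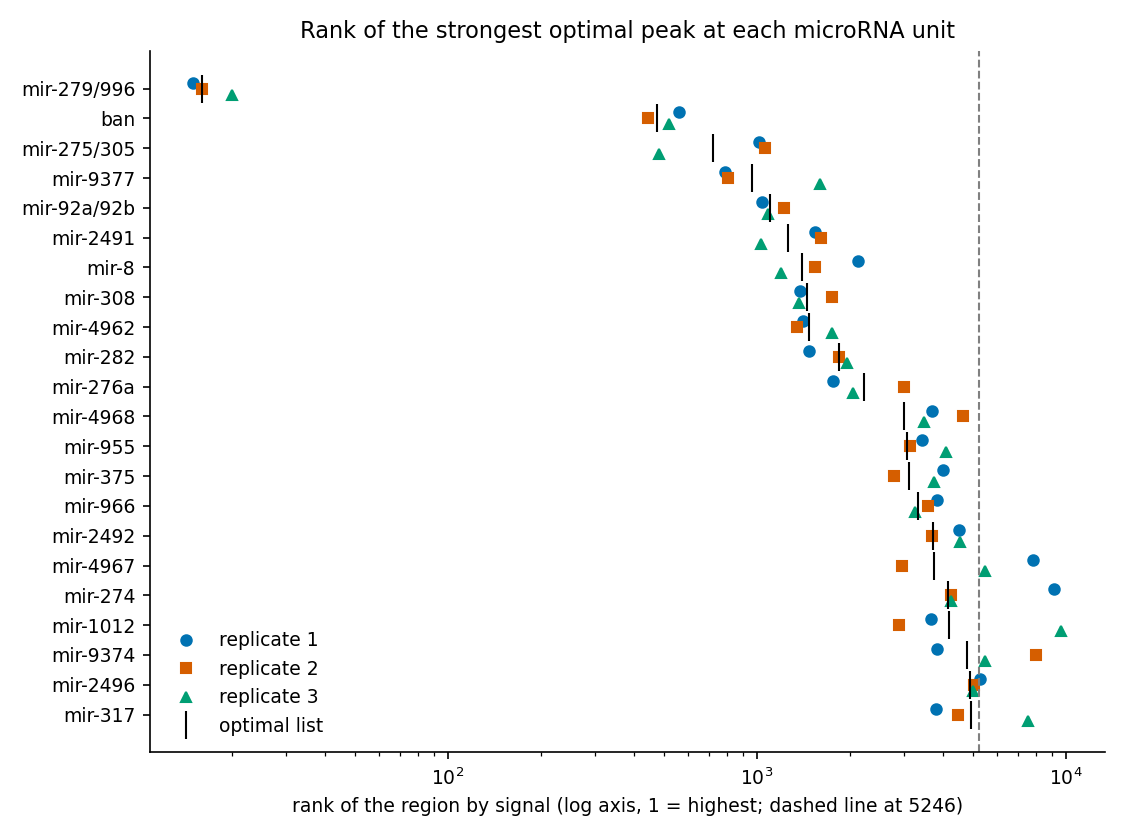
Rank by signal of the strongest optimal peak of each of 22 microRNA units (x axis, log scale, 1 is highest) in the optimal list (vertical marks) and of the region overlapping it in each replicate (symbols). The dashed line marks rank 5246. The mir-279 and mir-996 peak lies at ranks 15 to 20, and the ranks at mir-1012 run from 2894 to 9672.

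Summits were placed upstream more often than downstream. Of the strongest peaks of the 22 units, 17 were upstream of the nearest hairpin and 5 downstream. A transcript start of another gene lay within 500 bp of the summit in 13 of all 33 peaks (39.4%), close to the 38.2% of all optimal peaks, and 12 of these 13 were the strongest peak of their unit. Of all 33 optimal summits within 2 kb, 20 were upstream, 1 inside and 12 downstream. From 2 to 5 kb, 53 were upstream and 22 downstream. Pooled summits showed the same side, with 121 upstream and 86 downstream within 2 kb, and 193 and 108 from 2 to 5 kb. Each summit was assigned to its nearest hairpin, and no test was made of these counts. They were not set beside the same counts at other genes. For the 181 hairpins inside a same-strand transcript of another gene, the start of that transcript lies upstream by position.

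**Figure D4:**
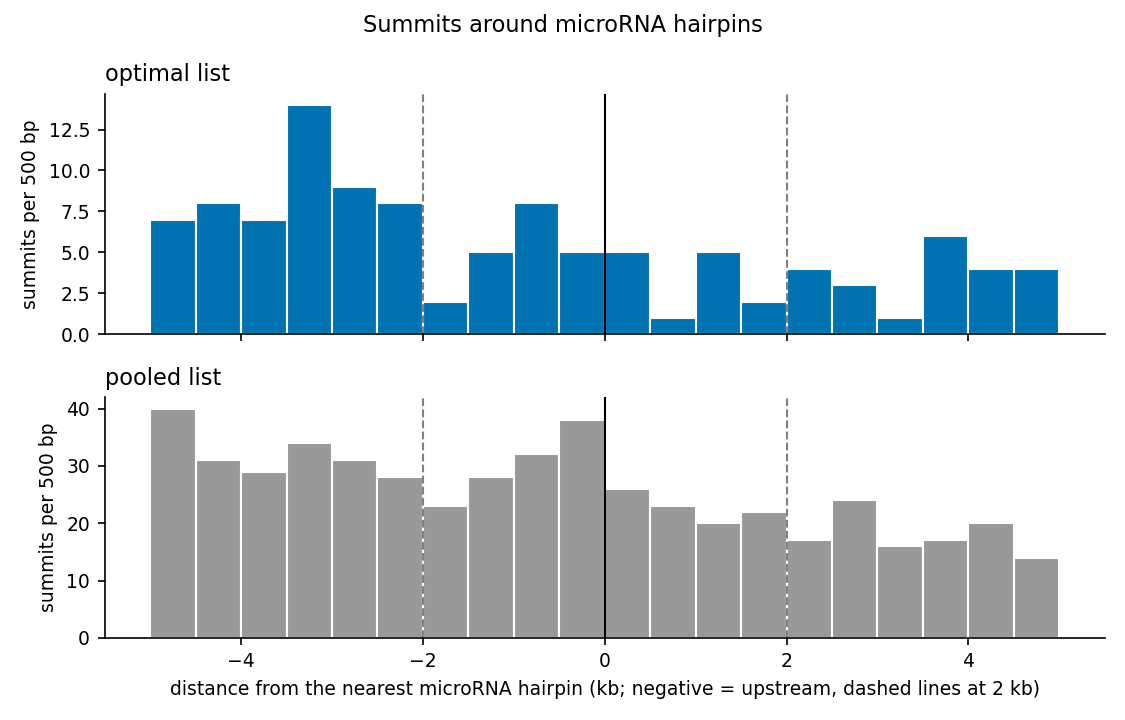
Number of optimal (top) and pooled (bottom) summits per 500 bp against the distance from the nearest microRNA hairpin in kb, upstream negative. Dashed lines mark the 2 kb window. Upstream of it, out to 5 kb, lay 53 optimal summits, against 22 on the downstream side.

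The start of a host transcript can lie far from the hairpin, so it was examined on its own, a comparison chosen after seeing the data. Of 181 microRNA genes inside a same-strand transcript of another gene, 47 had an optimal summit within 500 bp of a start of such a transcript. Of these 47, in 39 host genes, 33 had no optimal summit within 2 kb of the hairpin. The share was 17.4% for 46 genes in noncoding hosts, against 8.58% of all long noncoding RNA genes. The 46 are hairpins, and several share 1 host, such as the 8 in lncRNA:CR44504, whereas each long noncoding RNA gene was counted once. No count per host or by number of starts was made for noncoding hosts. The share was 28.9% for 135 genes in protein-coding hosts, against 14.9% of all protein-coding genes.

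Protein-coding hosts are long, with a median of 14 kb against 2.16 kb for all protein-coding genes, and they have more starts. A further count was made per host gene, at any of its starts and not only those of transcripts that hold the hairpin. It gave 29.1% of 127 protein-coding hosts. Among hosts with 1 start, 12.7% of 55 had an optimal summit there, against 9.87% of all such protein-coding genes. Among hosts with 2 to 3 starts it was 32.7% of 52 against 26%, and with 4 or more it was 65% of 20 against 49.3%. The next shares count microRNA genes again, at starts of transcripts that hold the hairpin. Counted by replicate, the share in protein-coding hosts was 30.4%, 31.9% and 31.1%, above the 15.2%, 15.7% and 16.2% of all protein-coding genes. In noncoding hosts it was 28.3%, 15.2% and 15.2% in replicates 1, 2 and 3, so replicate 1 stood apart. All long noncoding RNA genes gave 9.04%, 8.06% and 9.09%.

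Distant starts with high peaks included that of bun, a growth regulator gene that holds mir-967 (signal 603, 23489 bp from the hairpin, ranks 147, 224 and 271 in replicates 1, 2 and 3). The gene spi, which encodes the EGF receptor ligand Spitz, holds mir-2a-1, mir-2a-2 and mir-2b-2 (signal 503, ranks 230, 390 and 436). The start of grp, the Chk1 checkpoint kinase gene, which holds mir-9c, mir-306, mir-79 and mir-9b, had a signal of 155 and ranks of 1297, 4246 and 2449. The stress-induced noncoding gene lncRNA:Hsromega, which holds mir-4951, had a signal of 305. At ban a start 13773 bp upstream had a peak of signal 125, with ranks 2022, 8746 and 8136 in replicates 1, 2 and 3. The signals at the grp and ban starts were below the median of 169 for all optimal peaks.

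**Figure D5:**
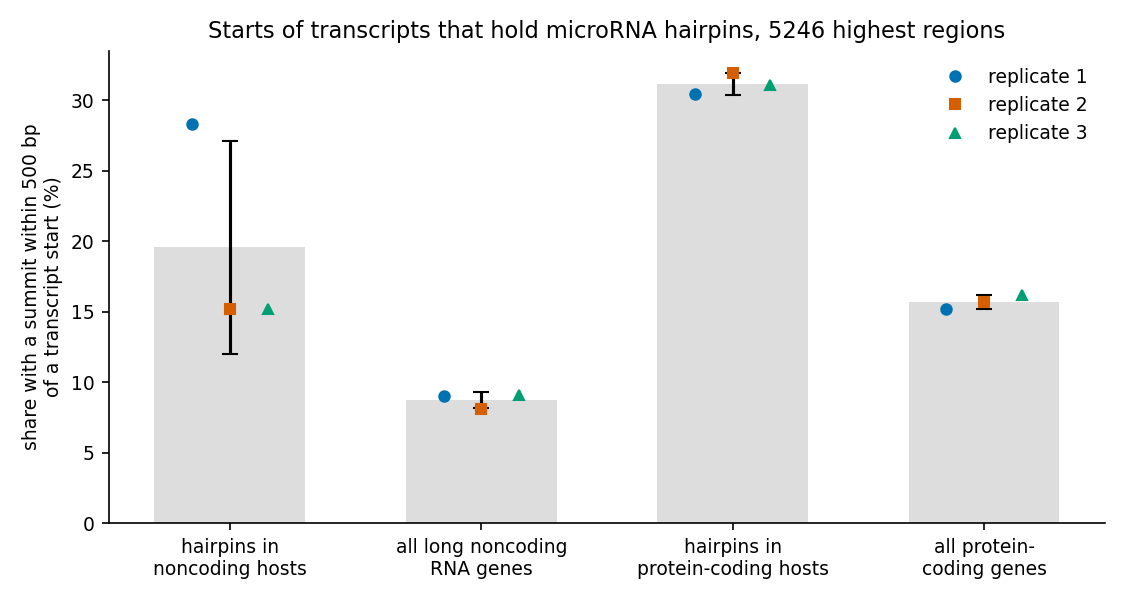
Share with a summit of the 5246 highest regions within 500 bp of a transcript start (y axis, percent), for microRNA genes by kind of host, each beside all genes of that kind. Bars are means of 3 replicates, error bars SD and symbols single replicates. Values for protein-coding hosts lie at 30.4% to 31.9%, and those for noncoding hosts spread from 15.2% to 28.3%.

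By seed, the genes with a peak were mostly singles. Of 33 seeds shared by 2 or more microRNA genes, 9 had a gene with an optimal summit and 2 had more than 1 such gene. Seeds of both arms were counted, so the pair mir-276a and mir-276b stands for 2 of the 9. The 2 seeds with more than 1 such gene were those of mir-279 with mir-996 and of mir-92a with mir-92b, each pair 1 unit. These counts stand beside the 9.65% of all microRNA genes and were not tested. The seed of mir-279 and mir-996 is also that of mir-286, which had none. The seed of mir-92a and mir-92b is shared with mir-310, mir-311, mir-312 and mir-313, which had none. The largest family has 14 genes, the mir-2, mir-6, mir-11 and mir-13 genes with mir-5 and mir-308, many of them repressors of cell death genes. Of these 14, 1 had an optimal summit, mir-308. Beside the 9.65% of all microRNA genes, this count shows nothing particular to the family. Its members mir-2a-1, mir-2a-2 and mir-2b-2 had a pooled region of signal 104 at rank 5286, just below the 5246 optimal peaks.

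Timing and hormone microRNAs had an optimal summit in 1 of 8, mir-282. The let-7 complex had none within 2 kb, and the nearest optimal summit, of rank 2901, lay at -2617 bp from mir-100, where negative means upstream. Its strongest region near let-7 had rank 19752 of the pooled list, with ranks 19044 and 18314 in replicates 2 and 3 and no region in replicate 1. For mir-100 the pooled rank was 16641, and for mir-125 there was no pooled region. The ecdysone-regulated gene mir-14, which limits cell death, had a pooled region at rank 5294. The highest regions within 2 kb of it had ranks 2877, 10073 and 4305 in replicates 1, 2 and 3, and their summits lay 879, 819 and 123 bp upstream. For mir-34, a gene of ageing and nervous system maintenance, the pooled rank was 8320, and mir-252 had no summit in any list.

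The growth and cell death list had one in 6 of 24 (25%), namely ban, mir-8, mir-308, mir-275, mir-305 and mir-276a. These lie in 5 units, and mir-276a is on the list as written, though described above by its role in the brain. A further 10 had a pooled summit only. Of the neural and sensory list, 2 of 11 had one, mir-279 and mir-996 of 1 unit, while the neuronal mir-124 had no summit in any list. The muscle list had 2 of 4, but these were mir-92a and mir-92b, also 1 unit. The muscle microRNA mir-1 had its best region at pooled rank 14483. Beside the 9.65% of all microRNA genes these small lists show no more than their counts.

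Clusters as a whole had about the same share of optimal peaks as single genes. Of the 25 units of 2 or more genes, 3 had one, against 19 of 177 units of 1 gene and 22 of all 202 units. The largest clusters had none, but they are few. The 8 genes of the mir-309 to mir-6 cluster, which clears maternal messenger RNAs in the early embryo, had no pooled summit either. The unit of mir-975 to mir-979 on X likewise had 8 genes and no pooled summit. The 7 genes of the mir-310 unit all had a pooled summit, the best at rank 11905. The 15 genes of the testis list had none in the optimal list and 5 in the pooled list, beside 42.5% of all microRNA genes in the pooled list. Of these 5, mir-991 and mir-992 belong to the mir-310 unit, and mir-972, mir-973 and mir-974 share 1 pooled summit, of rank 23777.

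Genes that make and use microRNAs were examined as a list of protein-coding genes. The list also holds some genes of small interfering RNAs, such as AGO2 and r2d2, so its share is not of microRNA genes alone. Of 25 matched by symbol, 12 (48%) had an optimal summit within 2 kb, against 29.4% of all protein-coding genes. Among the highest regions of replicates 1, 2 and 3, 15, 11 and 14 had one, where 29.9%, 30.5% and 31.5% of protein-coding genes did. The window covers the whole gene, so long genes have more room for a summit, and gene length was not matched. The list is small, and the difference was not tested. The genes of Drosha (drosha), Dicer-1 (Dcr-1) and the export factor Ranbp21 had no pooled summit, and Ranbp21 had one among the highest regions of replicate 1 alone, at rank 4733. A peak of signal 891 and rank 75 lay within 2 kb of pasha, with ranks 100, 69 and 78 in replicates 1, 2 and 3, but its summit was 13 bp from the start of Mnat9 and 1804 bp from that of pasha. The peak at loqs, the Dicer-1 partner gene, had a signal of 411, 126 bp from the start of Ing5 and 4786 bp from that of loqs.

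Of the effector genes, AGO1, the Argonaute that carries microRNAs, had a peak of signal 179 at 2R 13957292 to 13957707, 589 bp from its start, with ranks 1451, 3753 and 3763 in replicates 1, 2 and 3. The silencing cofactor gene gw had a signal of 283, 100 bp from its start on chromosome 4, with ranks 1192, 1686 and 969. AGO2, which carries small interfering RNAs, had a signal of 334, 296 bp from its start. The deadenylase gene twin had a signal of 295, 2119 bp from the nearest start. The chaperone gene Hsp83 had a signal of 643 and the translational repressor gene brat a signal of 585, the highest of 12 summits over that long gene. In 7 of the 12 genes the start nearest to the summit was the own one. It was 40 bp away at Fmr1, but 704, 1072 and 2119 bp away at brat, Hsp83 and twin. The other 5 peaks, at pasha, loqs, r2d2, tral and Tailor, were nearer to a start of another gene. Of these, the summits at tral, r2d2 and Tailor still lay 75, 164 and 550 bp from the own start.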

How the data were processed

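The authors' deposited peak lists in dm6 were used, 1 of each of 3 replicates and a pooled list, with 30000 regions each, and the optimal list of 5246. Per the deposited description files, they derive from the replicate alignments and a further file, and the optimal list from the others. Signal is the authors' deposited region value. The sources used here do not give its formula, the peak caller, the aligner or the read depth, so signals rank regions within 1 list, and no interval from depth is possible. Intervals of shares cover counting of genes only.

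Genes came from Ensembl release 115 and mature sequences from RefSeq, both of the dm6 assembly. Of the 18358 genes, 485 records of mature microRNAs were left out. All regions lie inside the chromosomes. A region's rank in a replicate is that of the highest region overlapping it by 1 bp or more. Counting was tested on simulated summits. Python 3.11.15, pandas 2.3.3 and SciPy 1.17.1 were used. The lists in dm3 were not used. The microRNA genes and lists were chosen with earlier results of these data known. Named were let-7, mir-100, mir-125, ban, every unit with an optimal summit (22, under the 25 allowed), the gene with a summit inside its hairpin, and members of role lists. Other host, seed and pathway genes were named after their values were seen. Of 32 pathway entries, 7 named no gene as written, and of the role lists mir-263a named none.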

Additional observations from a re-analysis of the deposited data

How the results depend on the processing

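Counts depended mostly on the window and on the threshold. With a window of 500 bp, 10 genes in 9 units had an optimal summit and 53 genes a pooled one, and with the 50% of optimal peaks of highest signal 12 genes in 11 units did. With any base of the region counted, 27 genes did, and with a 1 kb window 17. Summits within 500 bp of a host transcript start, an alternative chosen after seeing the data, gave 47 genes. Symbols exactly as written, also added later, gave 24 genes, and current symbols 16 pathway genes of 31. The optimal list derives from all 3 replicates and was not remade without 1 of them. Instead, with 1 replicate set aside, only optimal peaks among the highest regions of both other replicates were counted. This gave 17 to 20 genes, 16 to 18 units and 10 to 11 pathway genes, and such a filter can only lower the counts. The pooled count with 1 replicate set aside was 82 to 86 genes. The strongest peak was among the 2500 highest regions of all 3 replicates in 10 units, among the 10000 highest in 22, and in 16 to 18 with 1 replicate left out. The difference from protein-coding genes was -9.65 to -11.8 points with 1 replicate left out (exact sign-flip p = 0.5, the smallest that design allows), and -18.4 with the whole gene in the window. It was negative in every alternative run. No paired analysis was possible because the series holds a single group, so replicate numbers pair no samples across groups; the difference above was taken between gene classes within each replicate. Read depth is unknown, so an absent region is one not listed, not a site shown to be unbound.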

Other observations

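By the number in the name, a grouping chosen after seeing the data, 13 of 82 genes below 400 (let-7 and ban included) had an optimal summit (15.9%, Wilson interval 9.51 to 25.3). The counts were 4 of 67 from 400 to below 2000 (5.97%, 2.35 to 14.4) and 8 of 110 from 2000 up (7.27%, 3.73 to 13.7). Noncoding same-strand hosts held 35, 7 and 4 genes of these groups, so name and host cannot be told apart.

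The motif TATAAA, searched on both strands within 50 bp of the summit, was at 4 of 33 peaks near microRNA genes (12.1%) and at 19.9% of all optimal peaks. Median A and T content within 25 bp of the summit was 64.7% at these 33 peaks and 66.7% at all optimal peaks. At the edge of the window, summits at mir-317, mir-4968 and mir-1012 lay 1857, 1882 and 1969 bp from the hairpin. Those at mir-282 and ban lay 2010 and 2016 bp away.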
